A study of Bos taurus with 7 samples.

Results

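RNA fragments of 8 to 15 nt were compared between the 70k fraction and the 100k fraction of commercial cow's milk (Bos taurus). Each fraction was 1 library, the one titled MP - 70k and the one titled MP - 100k, out of 7 libraries in the series. What MP and k stand for is not given in the labels. A sequence entered the comparison when it had 50 or more reads over both libraries, which left 1896 of the 113654 sequences found in either. All 7 libraries were made from RNA of pasteurized, homogenized, skimmed and filtered milk of Holstein cows sold as food, and the labels name no treatment in any group. The other 5 libraries, 3 titled Milk and 1 each of the 12k and 35k fractions, are given where they show how far libraries of this kind differed.

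Fragments of this length are mostly pieces of longer, stable RNAs. 5.8S rRNA, 28S rRNA and 5S rRNA belong to the large ribosomal subunit and 18S rRNA to the small one. tRNAs carry amino acids to the ribosome, Y RNAs bind the Ro60 protein, and U1 and U2 are small nuclear RNAs of the spliceosome. MicroRNAs silence messenger RNAs, and milk is known to carry them in vesicles and in other particles. A mature microRNA is longer than the reads listed here, so a matching read is a fragment of one.

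Most reads of both libraries were forms of the 5′ end of 5.8S rRNA that ended at the same base. The forms on which the comparison turns are shown, each 5′ to 3′ with T for U. Capitals mark the bases before the 11-nt stretch that all forms of a family share.
13-nt form of the 5.8S end: CGactcttagcgg
12-nt form of the 5.8S end: Gactcttagcgg
14-nt form of the 5.8S end: ACGactcttagcgg
15-nt form of the 5.8S end: TACGactcttagcgg
AG form, 13 nt: AGactcttagcgg
CT form, 13 nt: CTactcttagcgg
AT form, 13 nt: ATactcttagcgg
GG form, 13 nt: GGactcttagcgg
28S fragment, 14 nt: CAGgacggtggcca
28S fragment, 15 nt: GCAGgacggtggcca
18S fragment, 14 nt: GCAgctaggaataa
The names 5.8S, 28S and 18S rest on general knowledge of vertebrate rRNA and not on a bovine genome. A read of the AG, CT, AT or GG form can be a 13-nt form with other bases at positions 1 and 2. For the AG and GG forms it can also be a 12-nt form with 1 base added at its 5′ side, and the sequence does not tell these apart.

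The 70k library held 1817538 reads and the 100k library 1938689 reads of 8 to 15 nt. They listed 72194 and 69432 distinct sequences, of which 27972 were in both. The compared sequences covered 85.6% of the reads in 70k and 89.7% in 100k. Levels are RPM, reads scaled by the file total, and a count of 0 allows up to 1.65 RPM in the 70k library and 1.55 RPM in the 100k library. With 1 library against 1 library no test of the fractions was possible. The intervals given are 95% counting intervals of these 2 libraries and cover counting error only. The spread between libraries is shown by the 3 milk libraries, which nothing in the labels ties to separate cows or cartons.

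By length, 13-nt reads were the leading class in both libraries and held a smaller share in 70k. They made up 32.8%, 25.1% and 22.2% of the reads in milk 1, 2 and 3, 25.2% in 12k, 27.1% in 35k, 46.5% in 70k and 59.1% in 100k. The share was thus higher in 70k and 100k than in the other 5 libraries, and 100k stood above 70k. The 70k share was 0.787 times the 100k share (interval 0.785 to 0.789), a fold of 1.27, while the milk libraries differed from each other by up to 1.48-fold. Each of the other lengths held a larger share in 70k. The 12-nt reads held 24.4% in 70k and 19.2% in 100k (ratio 1.27, interval 1.26 to 1.28), within the 1.35-fold spread of the milk libraries. The 14-nt reads held 10.6% and 7.31% (ratio 1.45, interval 1.44 to 1.46), and the 11-nt reads 4.11% and 2.80% (ratio 1.47, interval 1.45 to 1.48). Those ratios were larger than the 1.197-fold and 1.13-fold spread of the milk libraries at these lengths. For reads of 8, 9, 10 and 15 nt the ratio lay between 1.15 and 1.35, within the milk spread at 8, 9 and 15 nt and just beyond the milk spread of 1.34-fold at 10 nt.

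The lengths depended on the 5.8S end family, that is, all sequences that hold the shared 11-nt stretch. The family took 65.4% of all reads in 70k and 76.7% in 100k. Among the reads outside it, the 13-nt share was 13.4% in 70k and 15.4% in 100k (ratio 0.866), and the 12-nt share turned round to 11.7% and 13.5% (ratio 0.866). Reads of 8, 9 and 10 nt turned round as well, with ratios of 0.813, 0.907 and 0.907. Reads of 14 nt stayed higher in 70k at 24.5% against 18.8% (ratio 1.30), and so did reads of 15 nt at 14.3% against 12.8% (ratio 1.11). Of these 14-nt reads, 93533 of 153926 in 70k and 38297 of 84951 in 100k were 1 sequence, the leading 28S fragment. With the 10 sequences with most reads left out instead, this one among them, the 14-nt ratio was 1.06, close to the 1.06-fold spread of milk. Reads of 11 nt came to 10.3% against 10.1% (ratio 1.02), within the 1.11-fold spread of milk outside the family.

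By first base, reads that began with A held 10.4% in 70k and 16.4% in 100k (ratio 0.633, interval 0.629 to 0.636). In the milk libraries they held 8.39%, 9.06% and 7.96%, in 12k 8.62% and in 35k 11.5%, so that 100k stood above all the others. Its 1.58-fold distance from 70k was larger than the 1.14-fold spread of milk. Reads that began with G held 31.5% in 70k and 24.5% in 100k (ratio 1.29, interval 1.28 to 1.29), within the 1.32-fold spread of milk. This turned round to 0.906 without the 5.8S end family and to 0.973 without the 10 sequences with most reads. C began 52.5% and 53.5% of the reads (ratio 0.980) and T began 5.66% and 5.54% (ratio 1.02), both far within the milk spread, and the C ratio turned round to 1.24 and 1.08 under the same 2 changes. At the second base, T stood at 5.69% in 70k and 9.19% in 100k (ratio 0.619, interval 0.615 to 0.624) and A at 32.1% and 24.3% (ratio 1.32).

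Split by length and first base together, the A-starting reads were higher in 100k at 13 nt and 14 nt alone. At 13 nt they held 1.84% of all reads in 70k and 8.26% in 100k (ratio 0.223, interval 0.220 to 0.225), against 1.73% to 2.00% in the milk libraries. At 14 nt they held 2.86% and 3.78% (ratio 0.757). T-starting reads of 15 nt held 1.38% and 2.18% (ratio 0.630, interval 0.621 to 0.640). Of these, the 15-nt form of the 5.8S end made up 6838 of 25015 reads in 70k and 30579 of 42329 in 100k. C-starting reads of 14 nt went the other way, at 6.10% in 70k and 2.47% in 100k (ratio 2.47, interval 2.44 to 2.49). The leading 28S fragment alone made up 93533 of these 110951 reads in 70k and 38297 of 47973 in 100k. From 8 to 11 nt every combination of length and first base was higher in 70k, with ratios of 1.04 to 1.72.

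**Figure D1:**
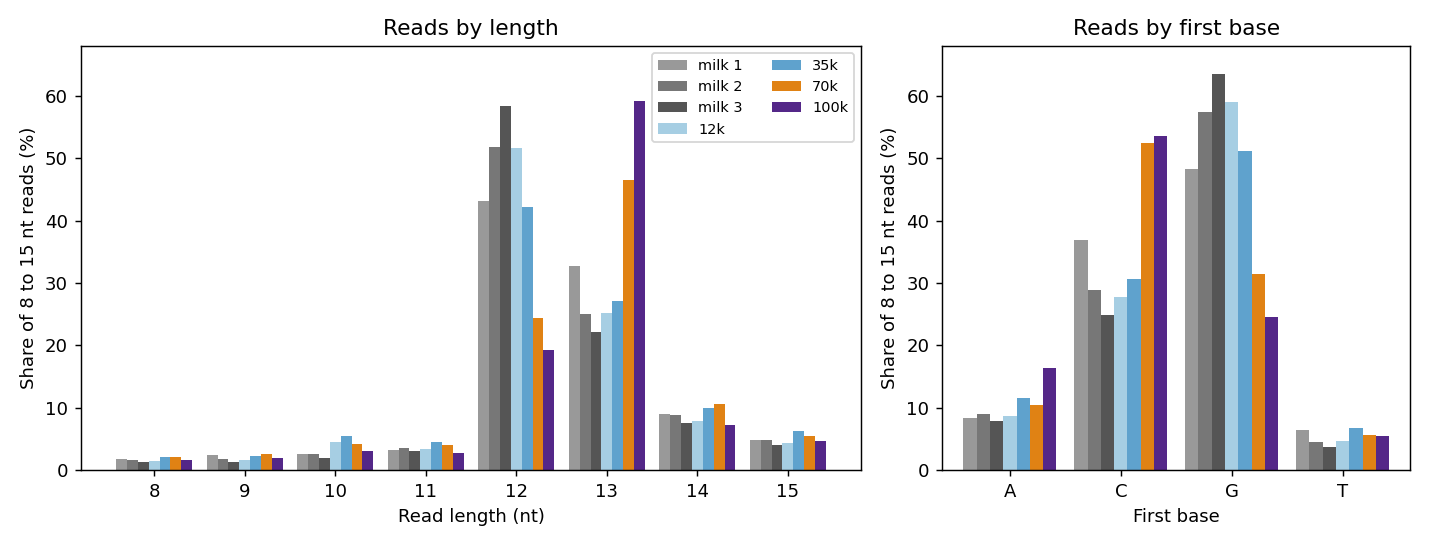
Share of the 8 to 15 nt reads (%) by read length (left) and by first base (right), with 1 bar for each of the 7 libraries. The 13-nt bars of 70k (46.5%) and 100k (59.1%) are the highest of that length, and the A-starting bar of 100k (16.4%) stands above the other 6.

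Most of the difference in A-starting reads lay in single forms of the 5.8S end. The exact 13-nt form differed little between the fractions. It stood at 260255, 189882 and 166555 RPM in milk 1, 2 and 3, 199228 RPM in 12k, 200868 RPM in 35k, 404074 RPM in 70k and 449328 RPM in 100k. Both fractions were above the other 5 libraries, and 70k was at 0.899 times 100k (interval 0.896 to 0.902). The exact 12-nt form stood at 377113, 465050 and 536757 RPM in milk, 469789 RPM in 12k, 356756 RPM in 35k, 202421 RPM in 70k and 157602 RPM in 100k. Both fractions were below the other 5, with 70k above 100k (ratio 1.28, interval 1.28 to 1.29). The number of 13-nt reads per 12-nt read was therefore 2.00 in 70k and 2.85 in 100k, against 0.310 to 0.690 in milk.

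The forms with other bases at positions 1 and 2 differed far more. The AG form stood at 6871, 7927 and 9693 RPM in milk, 8643 RPM in 12k, 6606 RPM in 35k, 5675 RPM in 70k and 44835.5 RPM in 100k. Only 100k stood apart, 7.90-fold above 70k, or 0.127 as the ratio of 70k over 100k (interval 0.124 to 0.129). The AT form had 29 reads in 70k and 51163 reads in 100k, or 15.96 and 26390.5 RPM. In the other libraries it lay between 12.6 and 110 RPM. It was the fifth most abundant sequence of the 100k library and had a ratio of 0.000605 (interval 0.000405 to 0.000868). The CT form stood at 2143 RPM in 70k and 17539.7 RPM in 100k (ratio 0.122), and at 6773 RPM in milk 1 against 584 to 742 RPM in the other libraries. The GG form, which also starts with another base than the 13-nt form, differed by less, with 4881 RPM in 70k and 5215 RPM in 100k (ratio 0.936, interval 0.909 to 0.963).

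Summed by first base, the 13-nt forms of the 5.8S end that began with A held 0.571% of all reads in 70k and 7.18% in 100k, against 0.699% to 0.972% in milk. Those that began with T held 0.103% and 0.737%, those with G 0.494% and 0.738%, and those with C 40.7% and 46.9%. Of all 13-nt reads with the shared stretch, 3.57% had other bases than CG before it in 70k (Wilson interval 3.53% to 3.61%) and 19.1% in 100k (19.0% to 19.2%), against 6.26% to 10.3% in the other 5 libraries. The CG form in this total was itself higher in 70k and 100k than in the other 5 libraries. When bases 1 and 2 were disregarded, the 13-nt forms held 41.9% and 55.5% (ratio 0.755), so that the 13-nt share was lower in 70k with the variants summed as well.

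The leading forms with a longer 5′ side were also lower in 70k. The 14-nt form stood at 20387.5 RPM in 70k and 28159 RPM in 100k (ratio 0.724, interval 0.715 to 0.734), with 18366 to 18978 RPM in milk. The 15-nt form that starts with T stood at 3762 RPM in 70k and 15773 RPM in 100k (ratio 0.239, interval 0.232 to 0.245), with 4217 to 4954 RPM in the other 5 libraries, so that 100k stood apart here too. The 15-nt form that starts with A instead, AACGactcttagcgg, was close in both at 785 and 893 RPM (ratio 0.879). The 11-nt form, which is the shared stretch alone, stood at 5429 and 4491 RPM (ratio 1.21, interval 1.17 to 1.24).

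Of the 42 forms of the 5.8S end with 50 or more reads, 23 were at least 2-fold higher in 100k and 4 at least 2-fold higher in 70k. Over all 1896 sequences, 12.4% were at least 2-fold higher in 100k and 36.3% at least 2-fold higher in 70k. The forms higher in 70k were Tactcttagcgg with 889.7 against 192 RPM (ratio 4.62), CGTactcttagcgg with 213 against 85.6 RPM (ratio 2.49), ACTactcttagcgg with 97.4 against 32.5 RPM (ratio 3.00), and a 14-nt form that ends 1 base later, cgactcttagcggc, with 23.1 against 6.19 RPM (ratio 3.73).

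The base changes behind these forms were counted as single mismatches of the leading forms, with positions counted from 1 at the 5′ end and the leading form's base written first. For the 13-nt form, C1A (the AG form) amounted to 1.40% of the exact form in 70k and 9.98% in 100k, with 2.64% to 5.82% in the other 5 libraries. Taken against the exact 13-nt form, the 70k share was the lowest and the 100k share the highest of the 7. That form was itself higher in 70k and 100k (404074 and 449328 RPM) than in the other 5 libraries (166555 to 260255 RPM). The AG and GG forms can also come from the 12-nt form, against which these shares were not taken. G2T (the CT form) amounted to 0.530% and 3.90%, and C1T to 0.252% and 1.03%. C1G (the GG form) stood at 1.21% and 1.16% of the exact 13-nt form, below the 2.21% to 4.89% of the other 5 libraries in both. The same limit holds for it as for C1A. The AT form carries C1A and G2T together. It amounted to 5.87% of the exact form in 100k, where the product of both single shares is 0.390%, and to 0.00395% in 70k, where the product is 0.00745%. In 100k the pair was therefore 15.1 times as frequent as the product of its parts and in 70k 0.530 times.

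Position 3 of the 13-nt form went the other way. A3C of the 13-nt form, cgCctcttagcgg, amounted to 0.451% of the exact form in 70k and 0.0491% in 100k, and to 0.406% to 0.454% in the other 5 libraries. It stood at 1824 RPM in 70k and 220.8 RPM in 100k (ratio 8.26, interval 7.47 to 9.16), and was chosen for naming after its values were seen. From position 4 to position 13 the summed single mismatches of the 13-nt form lay between 0.0767% and 0.479% per position in 70k and between 0.0892% and 0.300% in 100k. Single positions differed in both directions. Position 8 stood at 0.0767% in 70k and 0.255% in 100k, position 6 at 0.268% and 0.127%, and position 12 at 0.479% and 0.260%. Positions 7 and 13 were also higher in 100k, and the others from 4 to 13 were lower or close.

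Positions 1 and 2 differed in the 28S fragment and in other sequences as well. In the 28S fragment of 14 nt, C1A amounted to 0.109% of the exact form in 70k and 13.2% in 100k, and to 0.0995% to 0.245% in the other 5 libraries. A2G of the 28S fragment amounted to 0.0599% and 0.836%, while A5C amounted to 0.513% and 0.0287%. In the 12-nt form of 5.8S, G1C amounted to 0.128% and 1.63%, A2G to 0.0666% and 1.19%, and G1T went the other way at 0.440% and 0.122%. Another 44 sequences outside the 5.8S, 28S and 18S families had 1000 or more reads over both libraries and no neighbour with 10 times their reads. In 41 of them mismatches at position 1 were more frequent in 100k than in 70k, and at position 2 likewise in 41 of 44. Pooled, position 1 stood at 1.55% in 70k and 3.94% in 100k, and position 2 at 0.946% and 5.29%. Position 3 was close in both, at 0.772% and 0.721%. There A3C was lower in 100k, at 0.291% and 0.113%, and A3G higher, at 0.0559% and 0.121%. A5C was lower in 100k, at 0.357% and 0.0211%. From position 3 to position 6, 12 to 21 of the 44 were higher in 100k, and at positions 7 and 8 the number was 27 and 32. Of the 7 that begin with C, all 7 had more C1A in 100k, with a median of 0.124% in 70k and 9.74% in 100k. Of the 21 with G at position 2, all 21 had more G2T in 100k, with medians of 0.155% and 9.25%. The 44 were set apart by the shared 11-nt stretches alone. They still hold a 5.8S end that stops 1 base earlier, cgactcttagcg, which is among the 7 and the 21. Some overlap, such as agcgcccggc and agcgcccggcc, so the 44 are not 44 separate RNAs.

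Uncalled bases sat at position 2. Such reads stood at 433 RPM in 70k and at 1261 RPM in 100k, against 426 to 450.4 RPM in the other 5 libraries, and at position 3 in 2 reads of 100k. The forms of the 5.8S end and of the 28S fragment with other bases at positions 1 and 2 are themselves mismatches there, so the counts overlap. Mismatches of the 44 other sequences come from other reads. Pooled, they were also higher in 100k at positions 1 and 2. The part of the mismatches and uncalled bases in the first-base differences was not tested. Whether the mismatches arose with the RNA, the library or the sequencing run cannot be told apart in 1 library. Why 100k had more uncalled bases was not tested.

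**Figure D2:**
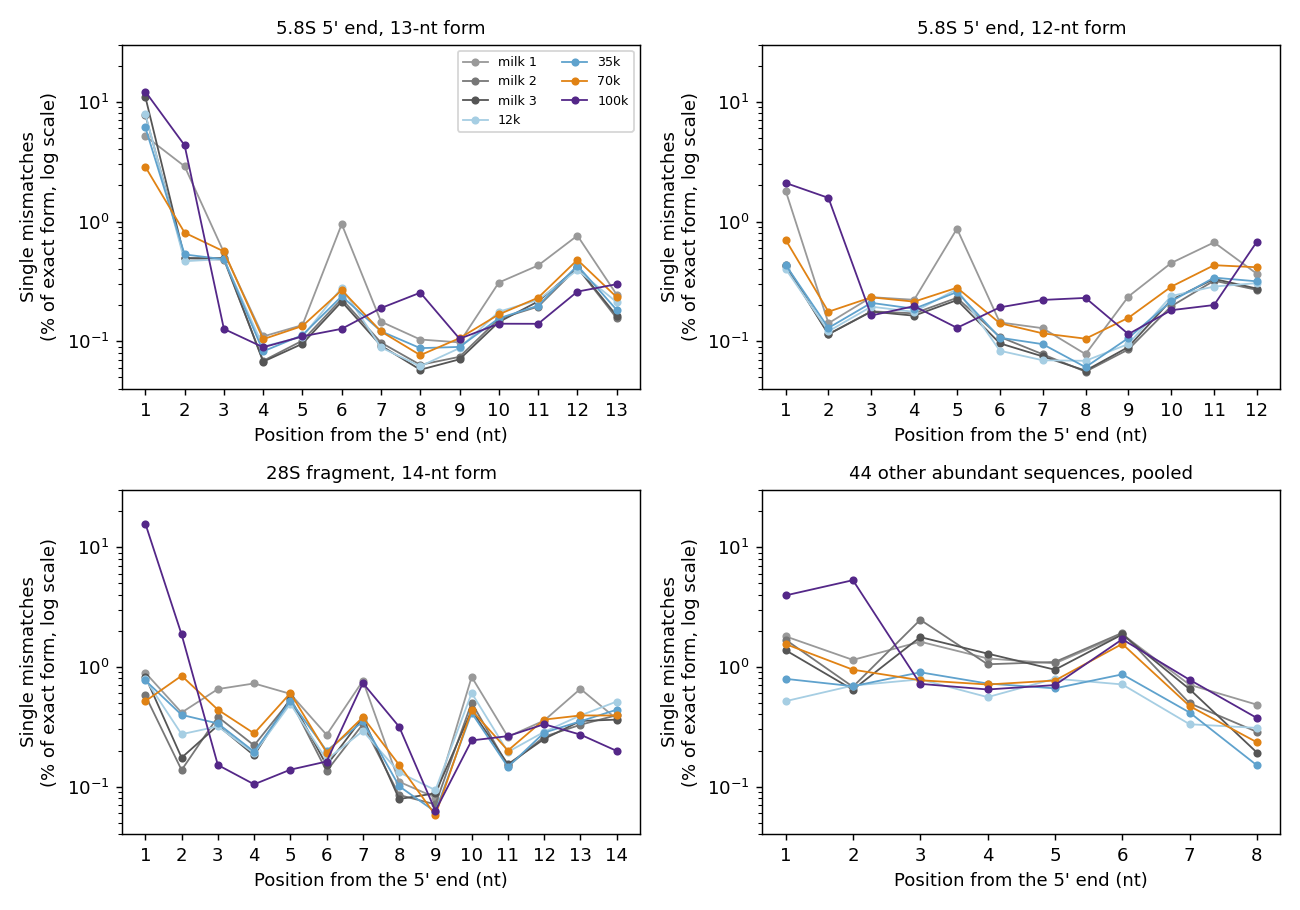
Single mismatches as a percentage of the exact form (log scale) by position from the 5′ end, for the 13-nt and 12-nt forms of the 5.8S end, the 14-nt form of the 28S fragment and 44 other abundant sequences pooled (positions 1 to 8), with 1 line for each library. The 100k line is the highest at positions 1 and 2 of all 4 panels and the lowest at position 3 of all 4 panels.

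The leading 28S fragment was the RNA with the largest number of reads after the 5.8S end and was higher in 70k. The whole 28S fragment family held 7.29% of all reads in 70k (Wilson interval 7.25% to 7.33%) and 3.33% in 100k (3.31% to 3.36%). It held 3.89% to 5.21% in milk, 3.59% in 12k and 4.48% in 35k. The 70k share was above and the 100k share below the other 5 libraries. The ratio of 2.19 (interval 2.17 to 2.21) was larger than the 1.34-fold spread of milk. It was 1.47 with the 5.8S end family left out of the totals and 1.33 with edgeR's TMM factors, the latter within the milk spread by file totals. Its 14-nt form stood at 37937, 34844 and 28621 RPM in milk, 27363 RPM in 12k, 32961 RPM in 35k, 51461 RPM in 70k and 19754 RPM in 100k (ratio 2.61, interval 2.57 to 2.64). The 15-nt form had a ratio of 2.13 and the 13-nt form AGgacggtggcca one of 2.19. Of the 27 forms with 50 or more reads, 13 were at least 2-fold higher in 70k and 7 at least 2-fold higher in 100k, against 36.3% and 12.4% of all 1896 sequences. The 7 began with A, C, G or T and included the C1A form AAGgacggtggcca, with 56.1 RPM in 70k and 2611 RPM in 100k (ratio 0.0215, interval 0.0175 to 0.0261).

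The leading 18S fragment was scarce in both fractions and higher in 70k. The family held 0.288% of all reads in 70k and 0.135% in 100k (ratio 2.14, interval 2.04 to 2.24), against 1.33% to 1.87% in the other 5 libraries. By file totals the ratio was larger than the 1.40-fold spread of milk. The ratio was 1.44 with the 5.8S end family left out of the totals and 1.30 with TMM, the latter within that spread. Its 14-nt form stood at 4955, 5786 and 7322 RPM in milk, 4897 RPM in 12k, 5339 RPM in 35k, 1387 RPM in 70k and 613 RPM in 100k (ratio 2.26, interval 2.11 to 2.43). Of its 8 forms with 50 or more reads, 5 were at least 2-fold higher in 70k, against 36.3% of all 1896 sequences. The 1 form at least 2-fold higher in 100k was AAgctaggaataa with 5.50 against 24.8 RPM (ratio 0.222). The leading 13-nt form of this fragment, CAgctaggaataa, had 524 and 214 RPM (ratio 2.45).

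Over all 1896 sequences, 689 were at least 2-fold higher in 70k and 236 at least 2-fold higher in 100k, 48.8% together. Pairs of milk libraries compared in the same way had more such sequences, 58.1% for milk 1 over milk 2, 60.6% for milk 1 over milk 3 and 57.4% for milk 2 over milk 3, and 12k over 35k had 53.9%. A 2-fold difference of a single sequence was thus no rarer between libraries of 1 kind. The median ratio of 70k over 100k was 1.63 (quartiles 1.03 and 2.34), and 1442 sequences had a ratio above 1. Since the 5.8S end family held less of the 70k reads, each other sequence had a ratio 1.49 times as high as it would have with that family left out of the totals. With the family left out, 260 sequences were at least 2-fold higher in 70k and 331 in 100k. With TMM, 189 were higher in 70k and 369 in 100k, so that the direction in which most 2-fold differences pointed depended on the scaling.

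Fewer sequences were past 2-fold with their whole counting interval, 230 or 12.1% higher in 70k and 174 or 9.18% higher in 100k. The median ratio was lowest in sequences of 8 nt, at 1.32, and highest in those of 15 nt, at 1.95. Of the 236 sequences higher in 100k, 94 or 39.8% differed at bases 1 and 2 alone from a sequence with at least 10 times their reads, against 11 or 1.597% of the 689 higher in 70k and 138 or 7.28% of all 1896. Of the same 236, 61 carried 1 or 2 mismatches of the 13-nt, 12-nt or 28S leading form, 25.8%. The share was 4.93% of those higher in 70k and 8.44% of all 1896. With bases 1 and 2 masked, 159 of 2060 sequences were at least 2-fold higher in 100k and 620 in 70k.

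**Figure D3:**
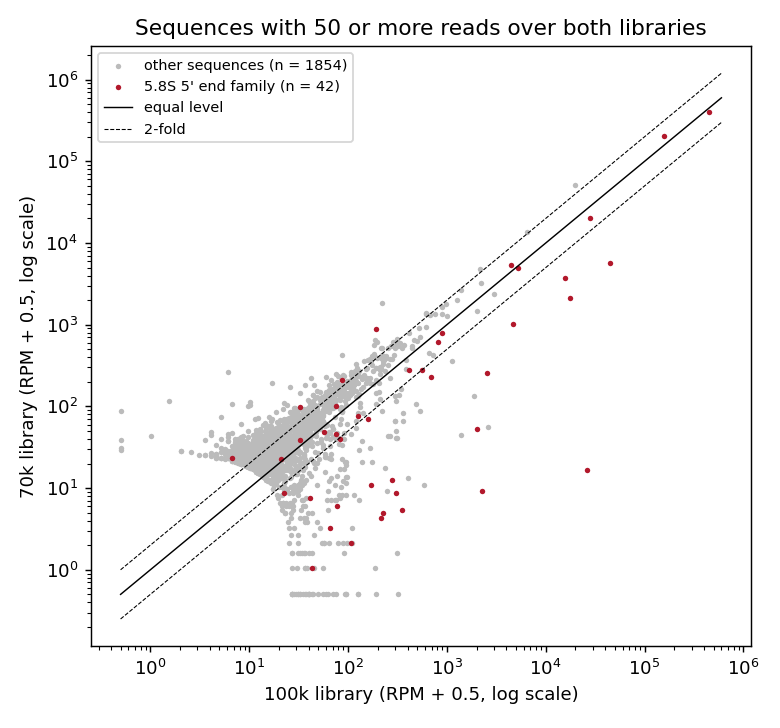
RPM of each sequence in 100k (horizontal) and 70k (vertical), both plus 0.5 on log scales, with the 42 forms of the 5.8S end in red and the other 1854 sequences in grey. The solid line marks equal levels and the dashed lines 2-fold. The slanted lower left edge follows from the minimum of 50 reads over both libraries, and 23 of the red points lie 2-fold or more below the equal line.

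Many of the sequences whose interval lay furthest from equal levels were relatives of the 5.8S end. Higher in 100k were, after the AT form, the TT form TTactcttagcgg with 8.80 RPM in 70k and 2276 RPM in 100k (ratio 0.00387). They also included forms with further changes at the 3′ side or the middle, such as ATactcttagcTT with C1A, G2T, G12T and G13T, and cTactcGtagcgg with G2T and T7G. ATactcttagcTT had 0 reads in 70k and 623 in 100k, at least 195-fold higher against the limit of 3 reads. cTactcGtagcgg had 2 reads in 70k and 600 in 100k. Both were at or under 1.81 RPM in the other 5 libraries.

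Of the 10 furthest in the other direction, 5 were relatives of the 5.8S end and 2 were forms of the 28S fragment. Among them was cgCcActtagcgg, with A3C and T5A, which had 159 reads in 70k and 0 in 100k, at least 56.5-fold higher against the limit of 3 reads. cgCAtcttagcgg, with A3C and C4A, had 212 reads in 70k and 2 in 100k. From the 28S fragment came caggCcggtggcca, its A5C form, with 480 reads in 70k and 11 in 100k (ratio 46.5, interval 25.8 to 93.9). These sequences were present in all 3 milk libraries, at 36.1 to 198 RPM, and in 12k and 35k at 43.4 to 151 RPM, so that 100k was the library that stood apart.

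Some sequences outside these families differed as much and were not assigned to a listed RNA. A G-starting sequence of 15 nt stood at 44.02 RPM in 70k and 1380.3 RPM in 100k (ratio 0.0319, interval 0.0252 to 0.0398), against 14.2 to 48.2 RPM in the other 5 libraries. A G-starting sequence of 14 nt had 0 reads in 70k and 182 in 100k, and 0 in the other 5. In the other direction, a C-starting sequence of 11 nt had 73.7 RPM in 70k and 4.64 RPM in 100k (ratio 15.9, interval 8.12 to 35.5), while the other 5 libraries had 327 to 1045 RPM. A G-starting sequence of 12 nt had 100.1 and 9.28 RPM (ratio 10.8), and this last one was chosen for naming after its values were seen.

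By parent RNA, reads of 12 nt or more were assigned to 66 RNAs or RNA families by exact match, or by the shared stretch for the 3 leading rRNA fragments. They took 73.6% of all reads in 70k and 80.3% in 100k. Reads too short for matching held 13.1% and 9.62%, and unmatched reads 13.4% and 10.04%. Of the 66, 33 had 50 or more reads over both libraries and 12 had none in either. Of the 33, 17 were at least 2-fold higher in 70k, or 51.5%, and 0 at least 2-fold higher in 100k. The share of parent RNAs that differed 2-fold between milk libraries was 25.9% for milk 1 over milk 2, 25.9% for milk 1 over milk 3 and 21.4% for milk 2 over milk 3, in either direction. With the 5.8S end family left out of the totals, 5 of the 33 were at least 2-fold higher in 70k and 1 in 100k, and with TMM 5 and 2.

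Among the rRNAs, 5S rRNA fragments stood at 530 RPM in 70k and 278 RPM in 100k (ratio 1.91, interval 1.71 to 2.12), below the 2341, 5545 and 4062 RPM of milk. Its ratio was within the 2.37-fold spread of milk. Other parts of 18S rRNA had a ratio of 1.92 (interval 1.81 to 2.03) and other parts of 28S rRNA one of 2.16 (interval 1.93 to 2.41). The rest of 5.8S rRNA, away from its 5′ end, stood at 405 and 396 RPM (ratio 1.02, interval 0.924 to 1.13). This ratio became 0.689 with the end family left out of the totals.

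By file totals the tRNA fragments were higher in 70k, by smaller ratios. Summed over 6 tRNAs they stood at 4434 RPM in 70k and 2714 RPM in 100k (ratio 1.63, interval 1.58 to 1.69), below the 12626 to 19538 RPM of milk. The summed ratio was 1.10 (interval 1.06 to 1.14) with the end family left out of the totals. TMM divides the ratio of 1.63 by 1.65, which leaves the summed levels about equal. tRNA-Gly stood at 3253 and 1946 RPM (ratio 1.67), with 3938 to 5419 RPM in milk. tRNA-Lys stood at 814 and 501 RPM (ratio 1.62), with 7639 to 12891 RPM in milk, 3782 RPM in 12k and 8983 RPM in 35k, so that both fractions were below all the others. tRNA-Glu had a ratio of 1.52, tRNA-Val one of 1.36 (interval 0.998 to 1.86) and tRNA-Asp one of 1.09 (interval 0.870 to 1.36). None of the 5 tRNAs with 50 or more reads was past 2-fold. The intervals of tRNA-Gly, tRNA-Lys and tRNA-Glu lay above 1, and without the end family in the totals those of tRNA-Gly and tRNA-Lys did.

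Y RNA fragments stood at 109, 203 and 141 RPM in milk, 90.5 RPM in 12k, 141 RPM in 35k, 256 RPM in 70k and 111 RPM in 100k. The 70k value was the highest of the 7, and the ratio of 2.30 (interval 1.95 to 2.72) exceeded the 1.87-fold spread of milk by file totals. It was 1.55 with the end family left out of the totals and 1.39 with TMM. The 2 small nuclear RNAs went apart. U1, which pairs with the 5′ splice site, had 65 reads in 70k and 19 in 100k (ratio 3.65, interval 2.16 to 6.44). U2, which pairs with the branch point, had 59 and 94 reads (ratio 0.669, interval 0.475 to 0.937) and was, by file totals, the single parent RNA besides the 5.8S end whose interval lay below 1. With reads of 10 nt or more its ratio was 0.862 (interval 0.676 to 1.10). With the end family left out of the totals, the rest of 5.8S rRNA, tRNA-Asp and miR-378 also had intervals below 1. 7SL RNA, the RNA of the signal recognition particle, had 0 reads in both.

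MicroRNA fragments were the class with the largest ratio, with an interval that overlapped that of Y RNA (1.95 to 2.72). The 49 families together stood at 966, 527 and 429.3 RPM in milk, 434 RPM in 12k, 595 RPM in 35k, 3273 RPM in 70k and 1329 RPM in 100k. Both fractions were above the other 5 libraries, and 70k was 2.46 times 100k (interval 2.35 to 2.58), or 1.66 times with the end family left out of the totals. All assigned RNAs but the 5.8S end together had a ratio of 2.14 (interval 2.12 to 2.16), or 1.44 with that family left out of the totals. More cells or vesicles of a kind and more RNA in each cannot be told apart in bulk libraries. Of the 18 families with 50 or more reads, 12 were at least 2-fold higher in 70k, the interval of 13 lay above 1 and that of 0 below 1. Among all 33 parent RNAs, 51.5% were 2-fold higher in 70k. With the end family left out of the totals, 4 of the 18 were 2-fold higher in 70k, the interval of 10 lay above 1 and that of 1 below 1. For 16 of the 18 families the milk libraries differed among themselves by more than 70k and 100k did, and many had few reads there. let-7 and miR-29 were the 2 families whose ratio by file totals was beyond the milk spread, which for miR-29 rested on 2, 4 and 2 reads in milk. TMM divides each ratio by 1.65, which brings the let-7 ratio of 2.71 to about its milk spread of 1.65-fold.

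Among broadly expressed families, let-7, which was first known as a regulator of developmental timing in worms, stood at 240, 181 and 146 RPM in milk, 124 RPM in 12k, 158 RPM in 35k, 783 RPM in 70k and 289 RPM in 100k (ratio 2.71, interval 2.46 to 2.99). miR-191 stood at 489.7 and 221.8 RPM (ratio 2.21, interval 1.97 to 2.48). miR-29 had 57 reads in 70k and 5 in 100k (ratio 12.2, interval 4.92 to 38.9), miR-423 had 62 and 9 (ratio 7.35, interval 3.63 to 16.8), the miR-17/20/93 family 103 and 25 (ratio 4.39) and the miR-15/16 family 87 and 27 (ratio 3.44). miR-10, miR-27, the miR-221 family and miR-378 had intervals that included 1, with ratios of 1.49, 1.44, 1.19 and 0.753. Of the 25 broadly expressed families, 12 had 50 or more reads and 8 of these were at least 2-fold higher in 70k, against 51.5% of all 33 parent RNAs. With the end family left out of the totals 4 of the 12 were.

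Of the 10 epithelial and mammary families, 4 had 50 or more reads and 3 were at least 2-fold higher in 70k, against 51.5% of all 33 parent RNAs. With the end family left out of the totals 0 of the 4 were. miR-183 stood at 260, 96.1 and 56.4 RPM in milk, 119 RPM in 12k, 123 RPM in 35k, 899.6 RPM in 70k and 338 RPM in 100k (ratio 2.66, interval 2.43 to 2.92). miR-182, which is encoded beside miR-183, had a ratio of 2.90 (interval 2.16 to 3.93), and miR-203, a microRNA of the skin and other epithelia, one of 2.52 (interval 2.15 to 2.97). miR-30 was close in both at 49.5 and 43.3 RPM (ratio 1.14, interval 0.839 to 1.56). Of the 3 erythrocyte families, miR-486 had a ratio of 2.49 (interval 2.04 to 3.05) and miR-144 one of 1.76 (interval 1.23 to 2.54), while miR-451 had 23 and 19 reads. The 5 leukocyte families stood at 20.4 and 7.22 RPM in all (ratio 2.82), with miR-142 at 14 and 0 reads, miR-223 at 17 and 7 reads, miR-146 at 6 and 7 reads, and miR-150 and miR-155 at 0 reads in both. Of the 6 families of other tissues, 5 had 0 reads in both, and miR-122, a liver microRNA, had 28 and 11 reads.

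**Figure D4:**
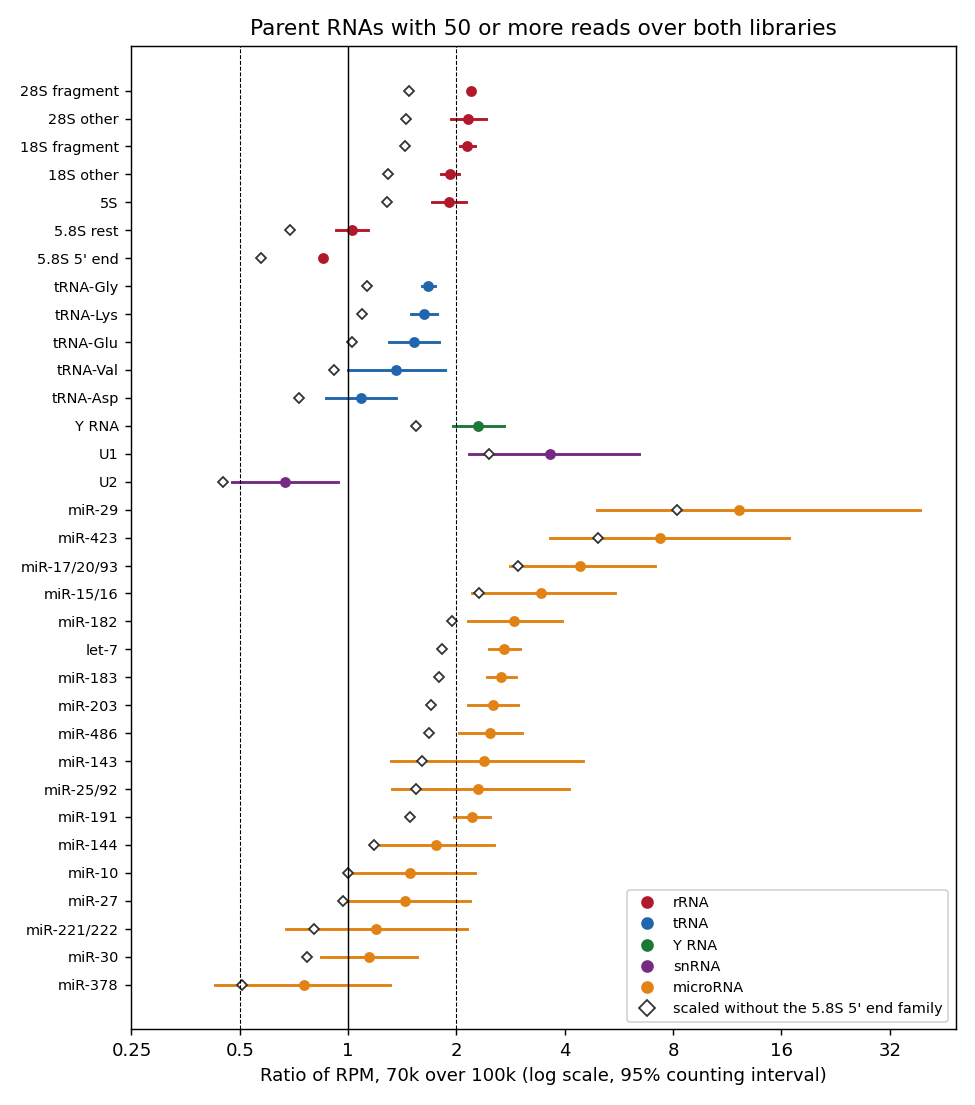
Ratio of RPM, 70k over 100k (log scale), for the 33 parent RNAs with 50 or more reads. Points with lines are ratios by the file total with 95% counting intervals, coloured by class, and open diamonds are the ratios with the 5.8S end family left out of the totals. The dashed lines mark 2-fold. 17 points lie at or beyond the right dashed line and 5 diamonds do.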

How the data were processed

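Small RNA of milk and milk fractions was sequenced for 51 cycles from inserts of 8 to 35 nt, per the labels' protocols. The deposited files list sequences of 8 to 15 nt, each with its count of reads and, per the file headers, its RPM. The authors' RPM equals the count divided by the file total. In milk 1 that column holds a closing total, so the column was entered as a score in that deposited file. The closing total of each file was dropped and counts were scaled by the file total. How reads were trimmed and filtered, and with which aligner if any, is not given in the sources used here.

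Ratios carry exact conditional (Clopper-Pearson) 95% counting intervals and shares Wilson intervals (Python, scipy 1.17.1). Reads carry no molecular identifiers. File totals cover the listed lengths and not whole libraries. Each fraction was 1 library, so no test was made. Reads of 12 nt or more were matched exactly, on their own strand, to 108 sequences entered from general knowledge of vertebrate RNAs, and 48 of the 49 microRNA families have a bovine gene name in RefSeq. Matching each read backwards gave at most 0.516 RPM in any class. The 5.8S, 28S and 18S families hold every sequence with the last 11 nt of a leading milk sequence. The scripts were tested on simulated data.

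The sequences named were the 12 with most reads and up to 10 in each direction whose interval bound was furthest from 1. Also named were the 5 leaders of each length, parent RNAs and forms of the leading families with 50 or more reads. Others are marked as chosen after their values were seen. The members and lists were chosen with earlier results of these data known. Alternatives were other read minimums, other match lengths, distinct sequences, other scalings (edgeR 4.0.16 TMM, R 4.3.3) and leaving out leading sequences.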

Additional observations from a re-analysis of the deposited data

How the results depend on the processing

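No paired analysis was possible because each fraction was a single library, and for the same reason no replicate could be left out. The 13-nt ratio of 0.787 was 0.948 with distinct sequences, 0.793 without the 10 sequences with most reads and 0.866 without the 5.8S end family. The A-starting ratio of 0.633 was 0.838, 0.942 and 0.825 in the same order. Leaving out the end family was chosen after seeing the data, as were masking bases 1 and 2 and matching from base 3. Ratios that reversed with distinct sequences were those of 8 nt (0.955), 9 nt (0.960) and 10 nt (0.978). Without the 10 leading sequences those of 8 nt (0.948), 12 nt (0.946), C-starting (1.08) and G-starting reads (0.973) reversed, and without the end family those of 8, 9, 10 and 12 nt (0.813, 0.907, 0.907 and 0.866), C-starting (1.24) and G-starting reads (0.906). The 925 sequences past 2-fold became 2854 with 20 reads or more, 216 with 200 reads or more, 591 without the end family in the totals, 558 with TMM, 404 by the whole interval and 779 with bases 1 and 2 masked. The 17 parent RNAs at least 2-fold higher in 70k stayed 17 with reads of 10 nt or more and of 14 nt or more, were 15 when matched from base 3, and became 5 without the end family in the totals, 5 with TMM and 1 with distinct sequences. Of the 33 parent RNAs, 30 had a ratio above 1, against 21 with TMM and 24 without the end family in the totals. Among those whose interval had excluded 1, tRNA-Glu (0.923) and tRNA-Lys (0.984) reversed with TMM. With distinct sequences the 28S fragment (0.972), U2 (1.68), miR-144 (0.721), miR-183 (0.962), tRNA-Glu (0.879), tRNA-Gly (0.962) and tRNA-Lys (0.861) reversed. As a share within its family, the AG form had a ratio of 0.148 in place of 0.127, and the 13-nt form reversed to 1.05. The cause of these changes was not tested, except that distinct sequences and read minimums change what is counted. Depth limits families with few reads, such as miR-29 with 5 reads in 100k.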

Other observations

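A set of 31 sequences with 50 or more reads that contain the 8-nt stretch GGGGAAGG was higher in 100k, and it was chosen after its values were seen. All sequences with this stretch stood together at 3695, 6185 and 6148 RPM in milk 1, 2 and 3, 2382 RPM in 12k, 4196 RPM in 35k, 1059 RPM in 70k and 4360.2 RPM in 100k. The 70k library was the lowest of the 7, and 100k was 4.12 times 70k (counting interval 3.92 to 4.33). Of the 31 sequences, 27 were at least 2-fold higher in 100k, against 12.4% of all 1896 sequences, and 0 were higher in 70k. The RNA they come from was not determined.

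Among the 10-nt sequences, not all leaders were higher in 70k. The 2 that rank after the leading one, both G-starting, stood at 2358 and 1477 RPM in 70k and at 3006 and 2036 RPM in 100k (ratios 0.784 and 0.725). In milk they lay between 353 and 966 RPM, and in 12k and 35k between 12202 and 13762 RPM. The leading one stood at 3272 and 2229.9 RPM (ratio 1.47).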
